A study of Mus musculus with 8 samples.

Results

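Messenger RNA of 10 genes of glutathione synthesis and use was followed gene by gene in donor T cells from the spleen: Gclc, Gclm and Gss (synthesis), Gsr (reduction), Gpx1 and Gpx4 (peroxidases), Glrx (a glutaredoxin), and Gsto1, Gstp1 and Gstt2 (transferases). They were chosen by name as core genes of the pathway, with earlier results of these data known. All 10 were found among the 25078 gene rows of the deposited tables, and all 10 were among the 12428 genes that passed the filter on low counts. The study asked how donor T cells that lack STAT3, a transcription factor of cytokine signalling, differ from wild-type (WT) donor T cells after allogeneic hematopoietic cell transplantation (HCT). T cells came from WT C57BL/6 donors or from Stat3 fl/fl CD4-Cre C57BL/6 donors (STAT3KO), in which Cre under Cd4 regulatory sequences acts in developing T cells, so that both CD4 and CD8 T cells carry the deletion. All recipients were irradiated WT BALB/c mice that also received T cell-depleted bone marrow of WT C57BL/6 donors. Spleens were taken on day 6, and CD4 and CD8 donor cells (H-2Kb+ TCRβ+) were sorted apart, giving 4 groups (WT CD4, STAT3KO CD4, WT CD8, STAT3KO CD8) of 2 libraries each. Each library pooled the lymphocytes of 3 recipients, so the 2 replicates of a group were pools and not single animals. Ages were not given.

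Glutathione is a small thiol made from glutamate, cysteine and glycine in a pair of ATP-using steps. Glutamate-cysteine ligase (a catalytic subunit from Gclc and a modifier subunit from Gclm) makes the first bond and glutathione synthetase (Gss) the second. Peroxidases oxidize glutathione while they reduce peroxides, glutathione reductase (Gsr) returns it to the reduced form with NADPH, glutaredoxins use it to reduce protein disulfides, and transferases couple it to other molecules. In activated T cells, glutathione is known to buffer reactive oxygen species and to be needed for the growth that follows activation.

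The libraries held between 20171396 and 23282757 counts. Stat3, the targeted gene, was at 32.4% of the WT level in STAT3KO CD4 T cells (edgeR adjusted p = 7.53e-04) and at 30.3% in STAT3KO CD8 T cells (edgeR adjusted p = 0.00536), which is the direction that the labels give. The summed CPM (counts scaled to a common library total) of Cd8a and Cd8b1 were 18.0 to 51.9 in the CD4 libraries and 1788 to 2097 in the CD8 libraries, and Cd4 was at 1403 to 1597 CPM in the CD4 libraries and 1.03 to 8.05 CPM in the CD8 libraries. The 7 genes of the T cell list (Cd3d, Cd3e, Cd3g, Cd247, Cd2, Cd5 and Thy1) summed to 4200 to 5040 CPM. In these bulk samples, fewer cells that express a gene and less RNA of it per cell cannot be told apart.

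Per transcript length, Gpx1 had the highest mean level and Gpx4 the lowest as listed, though the level of Gpx4 is uncertain for a reason given below. Levels are given here in RPKM, reads scaled to exon length and library size, as a mean over the 8 libraries with the lowest and the highest library. Gpx1 (chr9:108339080-108340344, + strand, mm10), which codes for the cytosolic glutathione peroxidase, had 76.2 RPKM (63.3 to 95.1), in the 92.6th percentile of the genes tested. Glrx (chr13:75839885-75850151, + strand), the cytosolic glutaredoxin, had 59.96 RPKM (52.3 to 67.5). Gsr (chr8:33653238-33698162, + strand) had 34.1 RPKM (25.2 to 40.7). These are the 3 highest means, and the ranges of Glrx and Gsr did not overlap, the only neighbours in the order of the 10 genes for which that held.

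Next in the order came a pair of transferases with almost the same mean. Gsto1 (chr19:47854973-47864788, + strand), an omega-class transferase with thioltransferase activity, had 26.3 RPKM (10.9 to 44.1), the widest range of the 10 genes in relation to its mean. Gstt2 (chr10:75831845-75834881, - strand), a theta-class transferase, had 26.0 RPKM (18.3 to 39.6). Gclc (chr9:77754535-77794489, + strand) had 20.2 RPKM (16.9 to 26.8). The order of these 3 genes differed between lineages. Gsto1 was the lowest of them in every CD4 library (10.9 to 18.8 RPKM) and the highest in every CD8 library (36.1 to 44.1 RPKM). Its mean over the 8 libraries lies between these ranges.

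The 4 lowest levels belonged to Gstp1, Gclm, Gss and Gpx4. Gstp1 (chr19:4035411-4037912, - strand), a pi-class transferase, had 15.8 RPKM (10.6 to 21.0). Gclm (chr3:122245557-122267215, + strand) had 9.20 RPKM (6.84 to 11.8), and Gss (chr2:155563181-155592810, - strand) had 6.99 RPKM (5.37 to 8.74). Gpx4 (chr10:80047166-80056439, + strand), the peroxidase that reduces lipid hydroperoxides in membranes, had 5.32 RPKM (3.76 to 6.83), in the 37.0th percentile. The catalytic subunit thus had a higher level per length than the modifier subunit in every library, with a Gclc to Gclm ratio of RPKM between 1.59 and 3.18, and the Gpx1 to Gpx4 ratio lay between 12.02 and 18.6.

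**Figure D1:**
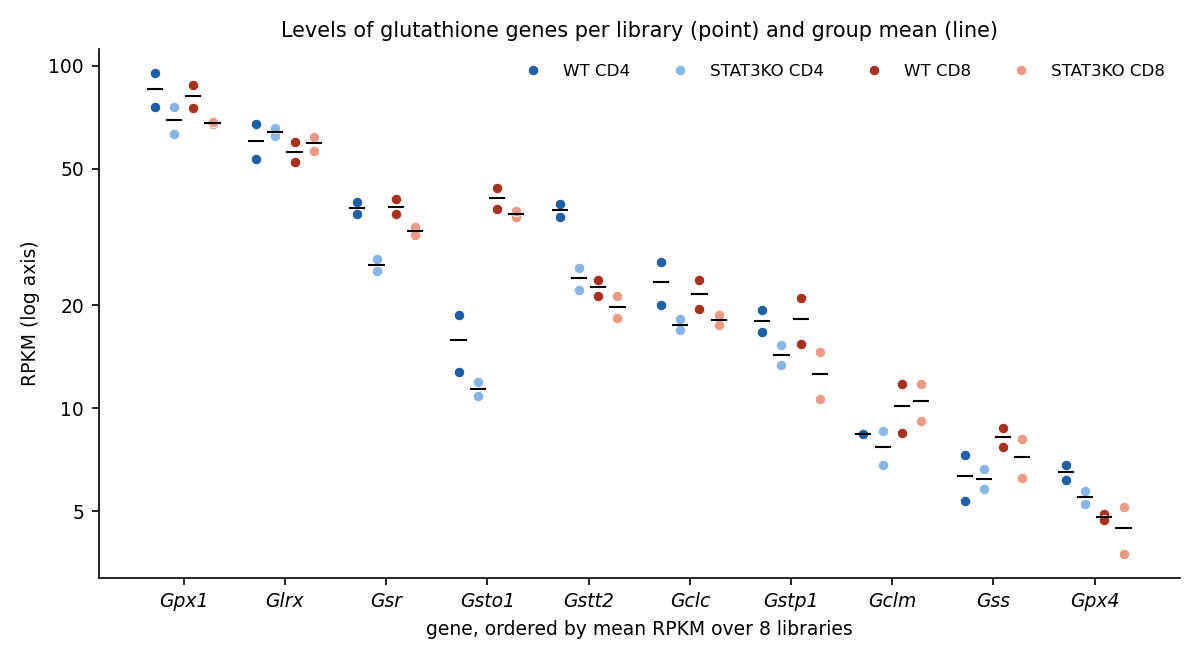
RPKM (log axis) of the 10 glutathione genes, ordered by their mean over 8 libraries, with a point for each library and a line for each group mean. Gpx1 and Glrx lie above the other 8 genes in every library, and Gsto1 is the gene whose CD4 points (10.9 to 18.8 RPKM) and CD8 points (36.1 to 44.1 RPKM) stand farthest apart.

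The levels of Gpx4 and Gstp1 are uncertain, because part of their sequence recurs elsewhere in the transcriptome. The rank of Gpx4 as the lowest and the Gpx1 to Gpx4 ratio are uncertain for the same reason. How reads that fit several places were counted was not given in the sources used here. Leaving such reads out would lower both levels. Of the stretches of 51 bases (the read length) in the coding transcripts of Gpx4 in GENCODE M21, 51.2% also occur in other genes, each of them in the pseudogene Gpx4-ps2. For Gstp1 the share was 50.7%, shared with Gstp2 and the pseudogene Gstp-ps. For Gss it was 16.1%, shared with Gssos1, Gssos2 and Acss2, which lie on the opposite strand, and the setting for strand in the authors' counting was not given in the sources used here. For the other 7 genes the share was at most 0.98%. Gss shares 6.68% of its exon bases with Acss2, and Gclm shares 4.71% with Gm17494 on the opposite strand and 3.88% with Gm6061.

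Both peroxidases are selenoproteins: they place selenocysteine at an in-frame UGA codon that elsewhere ends translation. The stretches around this codon are shown because they mark the active site of both enzymes and because the Gpx4 stretch is one of those that the pseudogene repeats. Each line has 27 coding bases (GRCm38, GENCODE M21, + strand), with the selenocysteine codon in capitals, at codon 47 of Gpx1 (chr9:108339439-108339465) and codon 73 of the Gpx4 transcript with 197 codons (chr10:80054725-80054751).
Gpx1: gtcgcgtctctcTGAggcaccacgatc
Gpx4: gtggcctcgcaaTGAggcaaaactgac
The Gpx4 stretch occurs unaltered in a transcript of Gpx4-ps2, and the Gpx1 stretch does not occur there.

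The Gstp genes lie side by side on chromosome 19, and the first 60 coding bases show how near Gstp1 is to Gstp2 and how far from Gstp3 (spliced, 5′ to 3′, - strand, capitals where a base differs from Gstp1). With the intron between them they span chr19:4037374-4037863, chr19:4041668-4042165 and chr19:4058819-4059424 (GRCm38).
Gstp1: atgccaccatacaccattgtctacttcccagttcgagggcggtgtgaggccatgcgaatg
Gstp2: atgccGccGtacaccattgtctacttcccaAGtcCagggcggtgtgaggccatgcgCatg
Gstp3: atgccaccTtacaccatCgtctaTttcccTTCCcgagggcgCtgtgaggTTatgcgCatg
Over all 630 coding bases, Gstp2 differs from Gstp1 at 12 positions (98.1% identity) and Gstp3 at 178 (71.7% identity). Gstp2 was listed with 0 to 2 counts per library, whereas Gstp3, which shares no stretch of 51 bases with another gene, had an RPKM 2.23 to 5.56 times that of Gstp1. This ratio is as uncertain as the Gstp1 level, and a Gstp1 level that is too low would raise it.

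STAT3KO CD4 T cells had less Gsr and Gstt2 mRNA than WT CD4 T cells, and no gene of the 10 was called higher. A gene was called where its p from edgeR's quasi-likelihood test, adjusted after Benjamini and Hochberg over all genes tested, was under 0.05. The fit behind these calls has no term for the replicate number, and calls with that number as a block are given at the end. Of the 10 genes, 2 were called, both lower, beside 1444 of all 12428 genes tested, or 11.6%. Values per library below are CPM scaled by TMM factors, given for replicates 1 and 2.

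Gsr, which returns oxidized glutathione to its reduced form, was at 99.4 and 106 CPM in WT CD4 T cells and at 73.9 and 69.0 CPM in STAT3KO CD4 T cells. Both STAT3KO libraries lay below both WT libraries. The STAT3KO level was 69.6% of the WT level, a log2 fold change of -0.52 (SE 0.098, 95% interval -0.75 to -0.30, edgeR adjusted p = 0.0148). This was the smallest SE among the 10 genes.

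Gstt2 was at 49.9 and 53.8 CPM in WT CD4 T cells and at 30.8 and 36.1 CPM in STAT3KO CD4 T cells. Again the groups did not overlap, and the gap between them exceeded the gap within either. Its log2 fold change of -0.63 (SE 0.13, 95% interval -0.94 to -0.32, edgeR adjusted p = 0.0226) was the largest of the 10 in size. Both calls rested on the pair of libraries per group. Without WT CD4 replicate 2, the adjusted p by edgeR was 0.0793 for Gsr and 0.102 for Gstt2. Without STAT3KO CD4 replicate 1 it was 0.0697 and 0.15, and without STAT3KO CD4 replicate 2 it was 0.114 and 0.0652. The fold changes stayed below 0 in all of these, between -0.57 and -0.47 for Gsr and between -0.75 and -0.52 for Gstt2. With only the 4 CD4 libraries in the fit, Gsr had an edgeR adjusted p of 0.0512.

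The synthesis genes were not called in CD4 T cells in this fit. Gclc, the catalytic subunit, was at 73.3 and 96.4 CPM in WT and at 66.9 and 62.9 CPM in STAT3KO CD4 T cells. The groups did not overlap, but the WT replicates stood farther apart than the nearest WT and STAT3KO libraries (log2 fold change -0.39, 95% interval -0.75 to -0.02, edgeR adjusted p = 0.162). Gclm, the modifier subunit, was at 17.6 and 17.3 CPM in WT and at 18.1 and 14.5 CPM in STAT3KO (log2 fold change -0.10, 95% interval -0.56 to 0.36). Gss, which adds glycine, was at 10.6 and 14.2 CPM in WT and at 11.6 and 13.3 CPM in STAT3KO, with the STAT3KO values inside the WT range. Its log2 fold change of 0.01 (95% interval -0.45 to 0.46) has no stable sign, and was -0.0067 with RLE size factors.

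Neither peroxidase was called in CD4 T cells in this fit, which has no term for the replicate number. Gpx1 was at 80.1 and 98.7 CPM in WT and at 67.0 and 81.4 CPM in STAT3KO CD4 T cells (log2 fold change -0.27, 95% interval -0.62 to 0.08, edgeR adjusted p = 0.298). Replicate 2 had the higher value in both groups, and the groups overlapped. Gpx4 was at 9.13 and 9.92 CPM in WT and at 7.80 and 8.63 CPM in STAT3KO (log2 fold change -0.21, 95% interval -0.65 to 0.22). Here the groups did not overlap, by a margin of less than 1 CPM.

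Glrx was the only gene of the 10 other than Gss with a fold change above 0 in CD4 T cells. It was at 71.3 and 88.8 CPM in WT and at 83.6 and 89.8 CPM in STAT3KO CD4 T cells, and the groups overlapped (log2 fold change 0.11, 95% interval -0.21 to 0.44). The remaining transferases had STAT3KO values below the WT values without overlap and were not called in this fit. Gsto1 was at 15.2 and 21.9 CPM in WT and at 12.95 and 14.4 CPM in STAT3KO (log2 fold change -0.44, 95% interval -0.87 to -0.01, edgeR adjusted p = 0.176). The value of Gsto1 rested on the WT libraries: its log2 fold change was -0.68 without WT CD4 replicate 1 (edgeR adjusted p = 0.0407) and -0.15 without WT CD4 replicate 2 (edgeR adjusted p = 0.661). Gstp1 was at 12.5 and 14.3 CPM in WT and at 10.1 and 11.7 CPM in STAT3KO (log2 fold change -0.30, 95% interval -0.82 to 0.22, edgeR adjusted p = 0.444).

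Counted over the 10 genes in CD4 T cells, 8 fold changes lay below 0, with a median log2 fold change of -0.28. Over all genes tested, 47.9% lay below 0, with a median of 0.02. Both STAT3KO libraries lay below both WT libraries for 6 of the 10 genes (Gclc, Gsr, Gpx4, Gsto1, Gstp1 and Gstt2), beside 25.0% of all genes tested. No gene of the 10 had both STAT3KO libraries above both WT libraries. Because the 10 genes were chosen with earlier results of these data known, such counts and medians, here and in CD8 T cells, are descriptions only. The summed list of 8 B cell genes moved with genotype in CD4 T cells, at 106 to 124 CPM in WT and 149 to 171 CPM in STAT3KO, which was essentially Cd22 alone (94.6 to 106 CPM in WT and 146 to 167 CPM in STAT3KO). Pax5, of the same list, stood the other way, at 9.89 to 16.8 CPM in WT and 0.197 to 0.501 CPM in STAT3KO CD4 T cells. Ms4a1 and Cd79a stayed at or below 0.348 CPM in all 8 libraries. Cd79b was at 0.892 and 1.27 CPM in WT CD4 and at 2.06 and 2.46 CPM in STAT3KO CD4 T cells. In the CD8 libraries Cd79b was at 11.9 to 12.8 CPM. The part of other cells in the fold changes of the 10 genes was not tested.

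**Figure D2:**
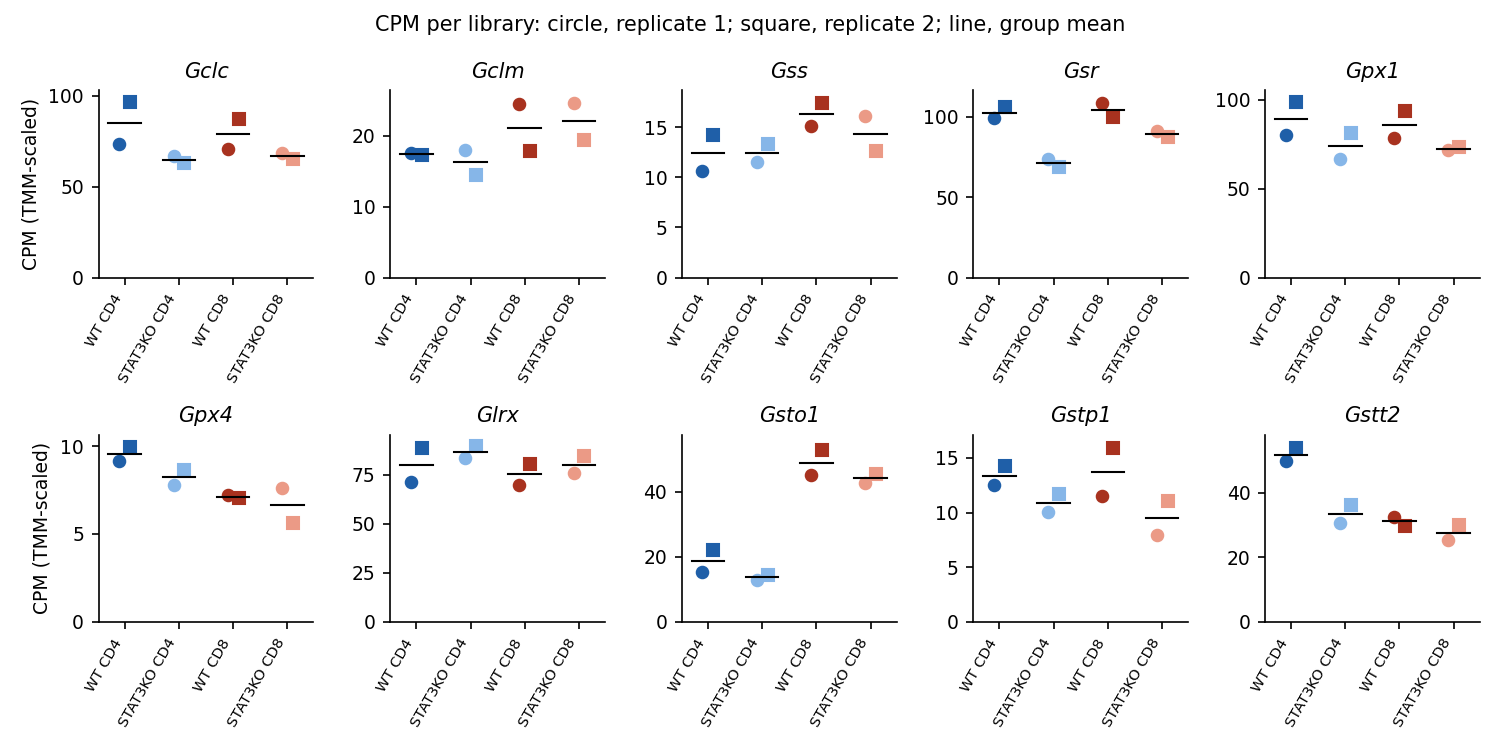
TMM-scaled CPM of each of the 10 genes in each library, by group, with replicate 1 as a circle, replicate 2 as a square and the group mean as a line. Gsr and Gstt2 show STAT3KO CD4 libraries below WT CD4 libraries (69.0 to 73.9 against 99.4 to 106 CPM for Gsr), and Gsto1 shows all CD8 libraries (42.8 to 52.7 CPM) above all CD4 libraries (12.95 to 21.9 CPM).

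In CD8 T cells, no gene of the 10 was called between STAT3KO and WT (0 of 10 by edgeR, and 0 by the DESeq2 Wald test), beside 2.07% of all genes tested by edgeR. The larger count of all genes that DESeq2 called here is given at the end. Neither fit has a term for the replicate number, and the calls with that number as a block, given at the end, differ. An unadjusted p under 0.05 was reached by 2 of the 10, Gsr and Gstp1, beside 19.3% of all genes tested. Gsr was at 109 and 99.98 CPM in WT CD8 T cells and at 91.0 and 87.6 CPM in STAT3KO CD8 T cells. The groups did not overlap, and the log2 fold change was -0.23 (SE 0.097, 95% interval -0.45 to -0.0008, edgeR adjusted p = 0.257). Gstp1 was at 11.5 and 15.9 CPM in WT and at 7.95 and 11.1 CPM in STAT3KO, again without overlap, with a log2 fold change of -0.52 (SE 0.22, 95% interval -1.04 to -0.01, edgeR adjusted p = 0.255). As given above, about as many of its 51-base stretches recur in other genes as do not.

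The other 8 genes had no p under 0.05 in CD8 T cells even before adjustment. Gclc was at 70.7 and 87.4 CPM in WT and at 68.6 and 65.0 CPM in STAT3KO (log2 fold change -0.24, 95% interval -0.61 to 0.12). Gpx1 was at 78.7 and 93.5 CPM in WT and at 71.5 and 73.7 CPM in STAT3KO (log2 fold change -0.25, 95% interval -0.59 to 0.10). For both genes the lower WT library lay close above the STAT3KO libraries. Gstt2, called in CD4 T cells, was at 32.5 and 29.7 CPM in WT and at 25.3 and 29.9 CPM in STAT3KO CD8 T cells (log2 fold change -0.17, 95% interval -0.48 to 0.14, edgeR adjusted p = 0.549). Its groups overlapped in CD8 T cells.

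Gsto1 was at 45.0 and 52.7 CPM in WT CD8 T cells and at 42.8 and 45.4 CPM in STAT3KO CD8 T cells (log2 fold change -0.15, 95% interval -0.55 to 0.26). Gss was at 15.1 and 17.4 CPM in WT and at 16.1 and 12.6 CPM in STAT3KO (log2 fold change -0.18, 95% interval -0.64 to 0.27). Both genes overlapped between genotypes. The 3 genes left also overlapped: Gclm (WT 24.5 and 17.9 CPM, STAT3KO 24.6 and 19.4 CPM), Gpx4 (WT 7.22 and 7.03 CPM, STAT3KO 7.62 and 5.64 CPM) and Glrx (WT 69.5 and 80.7 CPM, STAT3KO 75.7 and 84.4 CPM).

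In CD8 T cells, as in CD4 T cells, 8 of the 10 fold changes lay below 0, with a median log2 fold change of -0.18, beside 50.9% and a median of -0.01 for all genes tested. Both STAT3KO libraries lay below both WT libraries for 4 of the 10 genes (Gclc, Gsr, Gpx1 and Gstp1), beside 24.8% of all genes tested, and for none did both lie above.

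**Figure D3:**
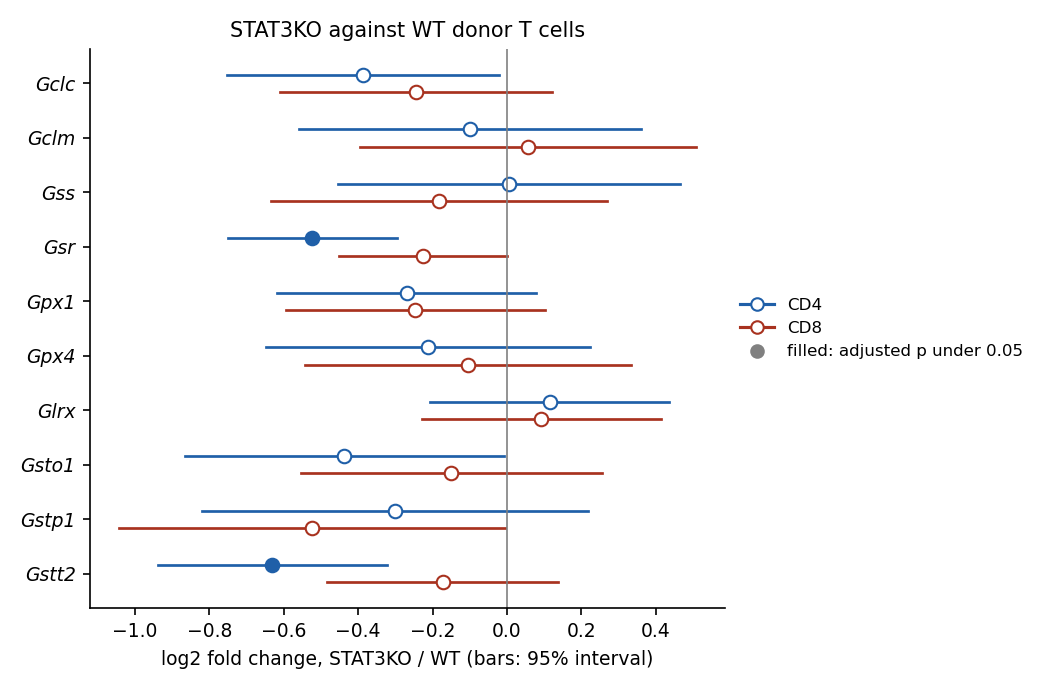
Log2 fold change of STAT3KO against WT (x axis) for the 10 genes in CD4 and in CD8 T cells, with bars for the 95% interval and filled points for an edgeR adjusted p under 0.05. Only Gsr (-0.52) and Gstt2 (-0.63) in CD4 T cells are filled, and 14 of the 18 open points lie to the left of 0, of which Gclc and Gsto1 in CD4 and Gsr and Gstp1 in CD8 T cells have intervals that end just below it.

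Whether the STAT3KO effect differed between the lineages was tested directly, as the fold change in CD8 T cells minus that in CD4 T cells. None of the 10 genes was called (0 of 10 by edgeR, DESeq2 and limma), and 1 had an unadjusted p under 0.05. Of all 12428 genes, edgeR called 0% (982, or 7.90%, had an unadjusted p under 0.05), DESeq2 called 188 and limma 13. Gstt2 came nearest, with a difference of 0.46 on the log2 scale (95% interval 0.02 to 0.89, edgeR adjusted p = 0.602). For Gsr the difference was 0.30 (95% interval -0.02 to 0.62, edgeR adjusted p = 0.675). A call for Gsr and Gstt2 in CD4 but not in CD8 T cells therefore does not amount to a difference between lineages. Nor do intervals this wide show that the effects were alike.

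CD8 T cells had more Gsto1 mRNA than CD4 T cells in both genotypes, and WT CD8 T cells had less Gstt2 mRNA than WT CD4 T cells. In WT, 2 of the 10 genes were called between lineages, 1 in each direction, beside 23.8% of all genes tested. In STAT3KO, 1 of the 10 was called, beside 12.5% of all genes tested. The comparisons by lineage and by genotype share libraries and are not independent of each other.

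Gsto1, at 15.2 and 21.9 CPM in WT CD4 T cells, was at 45.0 and 52.7 CPM in WT CD8 T cells. This was a 2.63-fold difference (log2 fold change 1.40, edgeR adjusted p = 0.00143, SE 0.18). In STAT3KO it was at 12.95 and 14.4 CPM in CD4 and at 42.8 and 45.4 CPM in CD8 T cells, a 3.22-fold difference (log2 fold change 1.69, edgeR adjusted p = 0.00206, SE 0.18). The lowest CD8 library was about 2 times the highest CD4 library, and the call held in each of the 14 alternatives tried in either genotype. The macrophage list also summed higher in CD8 libraries of the same replicate number: for replicate 1, 24.0 and 24.1 CPM in WT and STAT3KO CD4 T cells against 43.6 and 57.4 CPM in CD8 T cells, and for replicate 2, 77.7 and 97.0 CPM against 148 and 123 CPM. Most genes of the list differed mainly by replicate. In WT CD8 T cells, C1qa was at 1.03 and 22.9 CPM in replicates 1 and 2, and Csf1r at 0.558 and 18.7 CPM. Cd68 was the gene of the list that followed the lineage, at 8.70 to 17.7 CPM in CD4 and 36.9 to 50.9 CPM in CD8 libraries. The summed dendritic cell list was also higher in CD8 libraries (161 to 273 CPM, against 14.5 to 16.7 CPM in CD4 libraries), nearly all of it Itgax, which codes for CD11c, with Clec9a and Siglech at 0 in every library. The part of other cells in the Gsto1 difference was not tested.

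Gstt2 was at 32.5 and 29.7 CPM in WT CD8 T cells, below both WT CD4 libraries (49.9 and 53.8 CPM). The WT CD8 level was 60.03% of the WT CD4 level (log2 fold change -0.74, edgeR adjusted p = 0.00618, SE 0.13). In STAT3KO the values were 30.8 and 36.1 CPM in CD4 and 25.3 and 29.9 CPM in CD8 T cells, without overlap but not called (log2 fold change -0.28, 95% interval -0.59 to 0.03, edgeR adjusted p = 0.228). WT CD4 was thus the group with the highest Gstt2 level, and the STAT3KO CD4 libraries lay among the values of the CD8 libraries or just above them.

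The other genes were not called between lineages in the edgeR fit without a replicate term. Gsr had nearly the same mean in WT CD8 and WT CD4 T cells (log2 fold change 0.02, 95% interval -0.20 to 0.25). In STAT3KO, the CD8 libraries (91.0 and 87.6 CPM) lay above the CD4 libraries (73.9 and 69.0 CPM), with a log2 fold change of 0.32 (edgeR adjusted p = 0.0726, and 0.0485 by DESeq2). Gclm lay higher in CD8 T cells in both genotypes without overlap, with log2 fold changes of 0.28 in WT and 0.44 in STAT3KO (edgeR adjusted p = 0.356 and 0.201). Gpx4 lay lower in CD8 T cells in both, with log2 fold changes of -0.42 and -0.31 (edgeR adjusted p = 0.151 and 0.343). For Gclc, Gpx1, Glrx and Gstp1, the libraries of CD4 and CD8 T cells overlapped in both genotypes. For Gss they overlapped in STAT3KO, while in WT both CD8 libraries lay above both CD4 libraries (log2 fold change 0.39, edgeR adjusted p = 0.195).

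**Figure D4:**
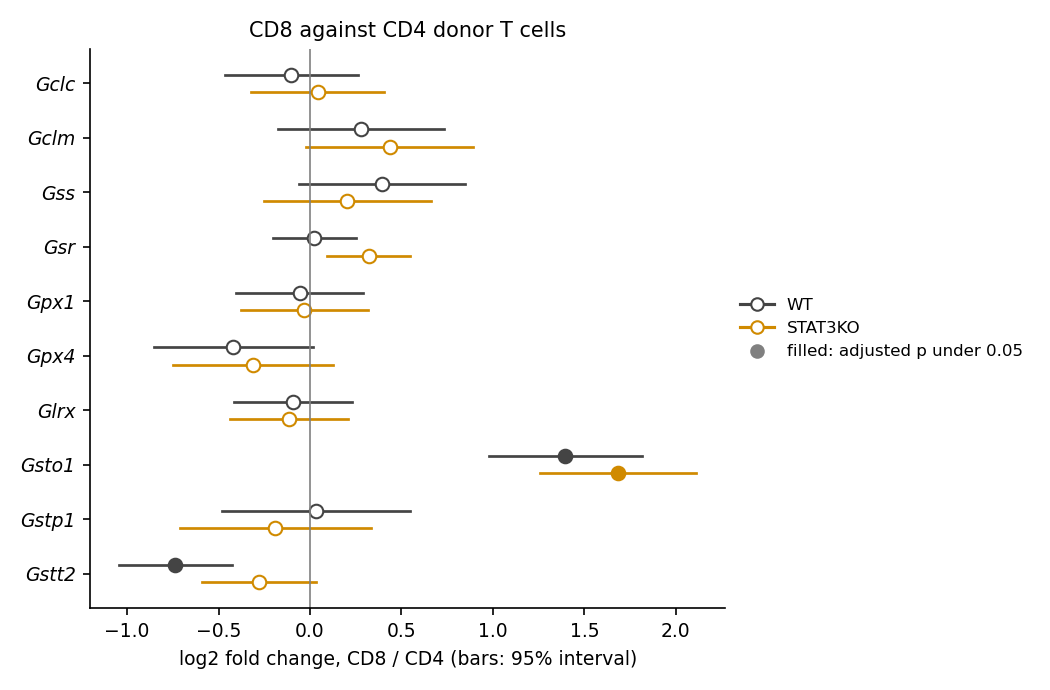
Log2 fold change of CD8 against CD4 T cells (x axis) for the 10 genes in WT and in STAT3KO, with bars for the 95% interval and filled points for an edgeR adjusted p under 0.05. Gsto1 stands to the right in both genotypes (1.40 and 1.69), and Gstt2 is filled on the left for WT only (-0.74).

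For the 3 genes called in any comparison, the genes with the most similar pattern over the 8 libraries were found by the root mean square difference of centred log2 CPM, among the 8757 genes whose log2 CPM averaged 3 or more. For Gsr these were Tnip3 (0.076), Zfp940 (0.079) and Cblb (0.082). For Gstt2 they were Sptlc1 (0.049), a subunit of the enzyme that starts sphingolipid synthesis, Idua (0.10) and Elmsan1 (0.10). For Gsto1 they were Cd68 (0.18), Fam241a (0.18) and Casc4 (0.18), less close than the neighbours of the other 2 genes, while the deviation of Gsto1 about its own mean was also larger (0.80, against 0.22 for Gsr and 0.36 for Gstt2).

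Around the 10 genes, 85 other genes of the pathway were listed in 7 roles, and 62 of them passed the filter. In CD4 T cells, 9 of the 62 (14.5%, beside 11.6% of all genes tested) were called between STAT3KO and WT, 4 higher and 5 lower, with a median log2 fold change of -0.03 over the 62. In CD8 T cells none of the 62 was called by edgeR (9 had an unadjusted p under 0.05, beside 19.3% of all genes tested). Between lineages, 18 of the 62 were called in WT (10 higher and 8 lower in CD8 T cells), or 29.0% beside 23.8% of all genes tested. In STAT3KO 7 were called (3 higher and 4 lower), or 11.3% beside 12.5%. The shares of the 62 genes were thus near those of all genes, and with lists of 3 to 13 tested genes the counts by role below are descriptions only.

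Among the genes for the supply of precursors and the turnover of glutathione, 2 of 13 tested were called in STAT3KO CD4 T cells, beside 11.6% of all genes tested. Ggt7, of the gamma-glutamyltransferase family, was lower, at 4.94 and 6.28 CPM in WT and at 1.60 and 2.06 CPM in STAT3KO (log2 fold change -1.61, SE 0.30, edgeR adjusted p = 0.0150). Ggct, which cleaves gamma-glutamyl dipeptides, was higher, at 18.9 and 18.5 CPM in WT and at 26.9 and 26.5 CPM in STAT3KO (log2 fold change 0.51, SE 0.12, edgeR adjusted p = 0.0367). Slc7a11, the light chain of the cystine importer, had 0 or 1 count in every library, and Cth and Cbs, which make cysteine from methionine, had at most 7 and 2 counts. Slc3a2, the heavy chain shared by several amino acid importers, had 2476 to 4015 counts.

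Gsr needs NADPH, and of 7 genes tested for its supply, 3 were called in STAT3KO CD4 T cells, in both directions, beside 11.6% of all genes tested. Idh2, the mitochondrial NADP isocitrate dehydrogenase, was at 25.3 and 26.2 CPM in WT and at 12.2 and 16.2 CPM in STAT3KO (log2 fold change -0.86, SE 0.18, edgeR adjusted p = 0.0212). Idh1, its cytosolic relative, went the other way, from 5.39 and 5.67 CPM to 9.45 and 10.8 CPM (log2 fold change 0.87, SE 0.19, edgeR adjusted p = 0.0237). Me2, on the list as a mitochondrial malic enzyme although it mainly uses NAD and not NADP, rose from 103 and 107 CPM to 134 and 156 CPM (log2 fold change 0.47, SE 0.10, edgeR adjusted p = 0.0272). Between WT lineages, Idh2 was lower and Me2 and G6pdx were higher in CD8 T cells (log2 fold changes -1.45, 0.82 and 0.51). In STAT3KO, Idh2 (-0.75) and Me2 (0.47) were called in the same directions.

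Of 13 other transferases tested, 2 were called in STAT3KO CD4 T cells, both lower (11.6% of all genes tested, in either direction). Gstt1, of the same class as Gstt2, was at 1.496 and 3.35 CPM in WT and at 0.450 and 0.503 CPM in STAT3KO (log2 fold change -2.33, SE 0.47, edgeR adjusted p = 0.0189). Mgst2, a microsomal transferase, was at 6.48 and 8.55 CPM in WT and at 2.55 and 4.29 CPM in STAT3KO (log2 fold change -1.13, SE 0.30, edgeR adjusted p = 0.0499). Between WT lineages, Gstm1, Mgst3 and Gstp3 were higher and Gstt3 was lower in CD8 T cells (log2 fold changes 1.89, 2.08, 0.51 and -0.83). Gstp3 was at 33.4 and 34.2 CPM in WT CD4 and at 46.6 and 49.8 CPM in WT CD8 T cells, whereas for Gstp1 the fold change between WT lineages was 0.03 on the log2 scale. In STAT3KO, Gstp3 (0.55) and Gstm1 (1.07) were called higher in CD8 T cells.

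Selenoprotein synthesis, on which Gpx1 and Gpx4 depend, had 1 of 7 genes called in STAT3KO CD4 T cells, again beside 11.6% of all genes tested. Sephs1, related to the selenophosphate synthetases, was higher, at 55.9 and 54.4 CPM in WT and at 76.4 and 80.2 CPM in STAT3KO (log2 fold change 0.51, edgeR adjusted p = 0.0147, SE 0.094). In WT, Sephs1 (0.64) and Pstk (0.57) were called higher in CD8 than in CD4 T cells. Of the other peroxidases, 3 of 6 passed the filter and none was called for the STAT3KO effect by edgeR (0 with an unadjusted p under 0.05 in either lineage). Between WT lineages Gpx8 was called higher in CD8 T cells, at levels of at most 0.691 CPM in any WT library. Of 12 other glutaredoxins and glutathione-using enzymes, only the mitochondrial glutaredoxin Glrx5 was called in STAT3KO CD4 T cells, and it was lower, at 36.4 and 36.04 CPM in WT and at 26.6 and 26.8 CPM in STAT3KO (log2 fold change -0.44, edgeR adjusted p = 0.0282, SE 0.099). The exporter of glutathione conjugates Abcc1 was called lower in CD8 than in CD4 T cells in WT (-0.82) and STAT3KO (-1.01), and Etfdh (0.46), which passes electrons to ubiquinone and is not itself a user of glutathione, was called higher in WT and Abcc4 (-0.57) lower in STAT3KO.

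NRF2, encoded by Nfe2l2, drives glutathione genes together with small MAF proteins at antioxidant response elements. None of the 7 genes of this control list was called in STAT3KO CD4 T cells by edgeR, where 5 had fold changes below 0 (47.9% of all genes tested) and 3 an unadjusted p under 0.05 (27.5% of all genes tested). Their median log2 fold change was -0.44 (0.02 for all genes tested), and that of Nfe2l2 was -0.39 (SE 0.13, edgeR adjusted p = 0.107). The list mixes Nfe2l2 and the small MAF genes with Keap1, Cul3 and Bach1, which act against NRF2. Of these, Bach1 (-0.50) lay below 0 and Keap1 (0.16) and Cul3 (0.03) above, so the median is no measure of NRF2 activity. Between WT lineages the small MAF genes Mafg (-1.03), Mafk (-0.70) and Maff (-2.05) were called lower in CD8 T cells, and in STAT3KO Mafg (-1.03) alone was. The core of the element, TGACNNNGC, was searched on both strands in the 250 bases before the start of the 7 genes of the 10 that have an entry in the RefSeq promoter table (GRCm38.p6). Gclc, Gsr and Gstt2 have no entry. The motif was found in the window of Gclm, a known target of NRF2, and in none of the other 6 searched, and 11.5% of all genes in the table hold it. The stretch is shown on the strand of the gene (chr3:122245413-122245441, + strand), with the motif in capitals. The motif reads TGACNNNGC on the opposite strand and lies 126 to 134 bases before the start.
Gclm: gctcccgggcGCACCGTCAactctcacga
A match of letters is a description and not a measured binding site, and Gclm itself was not called in any of the 5 comparisons in the fit without a replicate term.

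**Figure D5:**
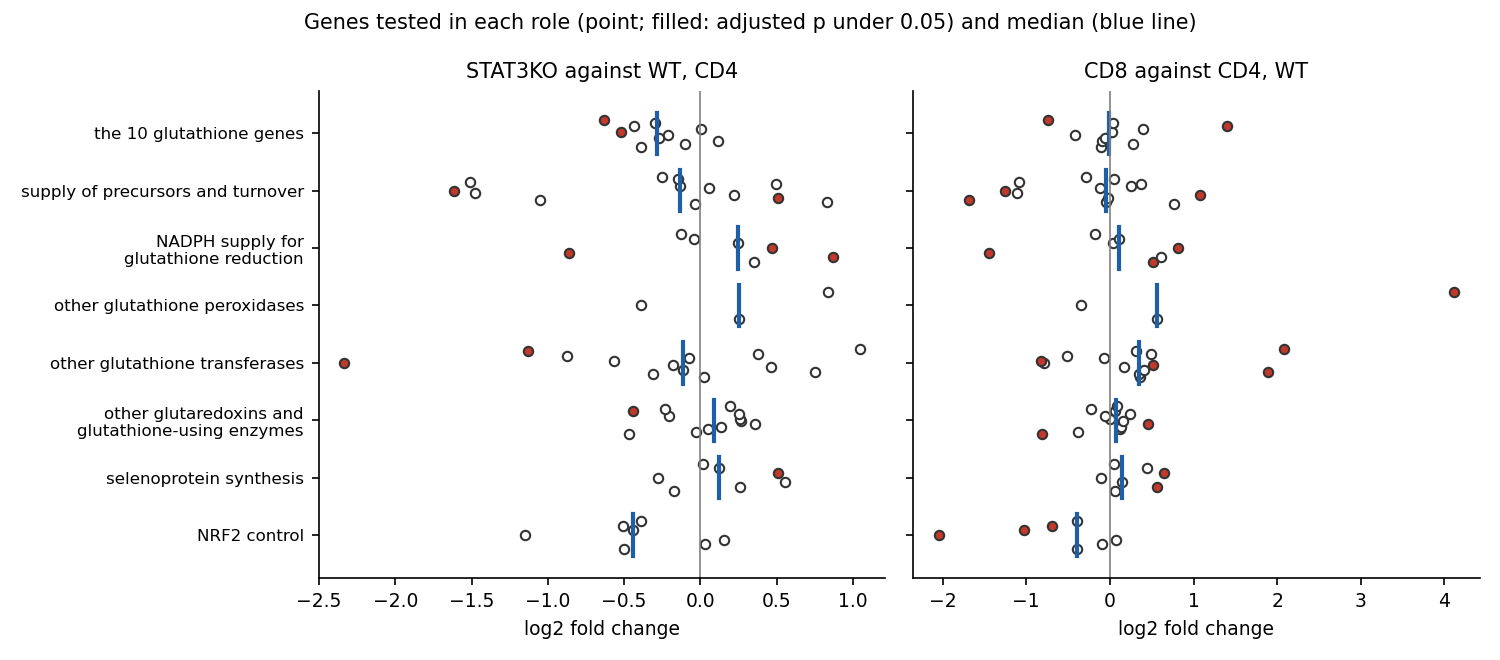
Log2 fold change (x axis) of every gene tested in each role, for STAT3KO against WT CD4 T cells (left) and for CD8 against CD4 T cells in WT (right), with filled points for an edgeR adjusted p under 0.05 and a blue line for the median of the role. In the left panel the 10 glutathione genes have a median of -0.28. The NRF2 control list, which mixes genes acting for and against NRF2, has one of -0.44, while called genes of the NADPH list stand on both sides of 0.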

How the data were processed

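Polyadenylated RNA of sorted spleen donor T cells was sequenced as single-end reads of 51 bases, per the study's methods. The authors aligned reads to mm10 with STAR, counted reads per RefSeq gene with HTSeq, and deposited raw counts and, in a second table, RPKM values made from them. The growth and treatment fields, which are about an adipogenic line and not T cells, were left out, and the labels and the methods name different library kits. Groups were taken from the sample titles. Library numbers in the titles form 2 runs that follow the replicate number, but no label says that the pools of a group came from separate experiments, so p-values measure only the spread between these pools.

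The deposited counts were filtered with filterByExpr (minimum count 10), scaled by TMM (factors 0.982 to 1.03) and fitted in edgeR 4.0.16 (R 4.3.3), with 1 mean per group over all 8 libraries. SEs and intervals follow from the F statistic of that fit. The fit was tested on simulated data. Levels between genes used the deposited RPKM. A count of 0 allows up to 3 counts, or 0.129 to 0.149 CPM, which covers counting error only. Marker sums are CPM by column total.

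All 10 genes are named. For the other roles, up to 4 called genes with the lowest p per comparison are named, together with Nfe2l2, Slc7a11, Slc3a2, Cth, Cbs and the marker genes with values, which were picked after their values were seen. The members and lists were chosen with earlier results of these data known. Erythroid genes summed to 1.04 to 8.99 CPM (the 4 hemoglobin genes were at 0) and neutrophil genes to 3.49 to 22.3 CPM. Shared stretches and exon overlaps came from GENCODE M21 (GRCm38). Alternatives were DESeq2 1.42.0, RLE size factors, no filter, the replicate number as a block, only the libraries compared, limma 3.58.1 on log2(RPKM + 1), and leaving out each library.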

Additional observations from a re-analysis of the deposited data

How the results depend on the processing

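The calls of Gsto1 between lineages in both genotypes and of Gstt2 between WT lineages held in every alternative run, and no called fold change of the 10 genes turned its sign. The calls of Gsr and Gstt2 in STAT3KO CD4 T cells did not hold without WT CD4 replicate 2 or without either STAT3KO CD4 library, as given above. Leaving out each library in turn left between 0 and 3 of the 10 genes called there, and moved the count over all genes from 1444 to between 412 and 1320 (STAT3KO CD4), from 257 to between 7 and 241 (STAT3KO CD8), from 2957 to between 1575 and 2573 (WT lineages) and from 1555 to between 457 and 1608 (STAT3KO lineages). A lone library left in a group was taken to vary like the other groups. With only the libraries compared, 951, 20 and 1937 genes were called for the STAT3KO effect in CD4 and CD8 T cells and between WT lineages, and 1 of the 10 for the effect in CD4. With no filter, 454 genes were called in CD8 T cells and 44 for the difference between lineages. DESeq2 called 885 and 188 genes in those comparisons, and limma called 13 for the difference. Between STAT3KO lineages, DESeq2 called Gsr, as given above, in addition to Gsto1. The causes of these shifts were not tested. The groups share replicate numbers, but the labels do not say that a number marks a batch, although the library numbers in the titles form 2 runs that follow it, and deviations of same-numbered libraries correlated across genes by 0.424 to 0.671 over the 6 pairs of groups. With the replicate block, 3747, 2258, 403, 5232 and 3689 of the 12428 genes tested were called for the effect in CD4, the effect in CD8, their difference, and the lineages in WT and STAT3KO. Beside these totals, of the 10 genes it called 5 in CD4 (adding Gclc, Gpx1 and Gsto1), 1 in CD8 (Gstp1) and 3 between STAT3KO lineages (adding Gsr and Gclm). These counts over the 10 genes are descriptions only. Fold changes near 0 turned sign. That of Gss in CD4 was -0.0067 with RLE size factors and with DESeq2, -0.024 with no filter, -0.0097 with only the libraries compared and -0.011 with limma. When each library was left out, log2 fold changes in CD4 ran from -0.26 to 0.049 (Gclm), -0.19 to 0.23 (Gss) and -0.035 to 0.28 (Glrx). In CD8 they ran from -0.15 to 0.30 (Gclm), -0.34 to 0.10 (Gpx4) and -0.01 to 0.20 (Glrx). The difference between lineages ran from -0.069 to 0.33 (Gclc), -0.051 to 0.40 (Gclm), -0.41 to 0.0034 (Gss), -0.13 to 0.17 (Gpx1), -0.12 to 0.31 (Gpx4), -0.19 to 0.13 (Glrx), -0.0031 to 0.53 (Gsto1) and -0.48 to 0.030 (Gstp1). Between WT lineages they ran from -0.29 to 0.11 (Gclc), -0.039 to 0.084 (Gsr), -0.20 to 0.10 (Gpx1), -0.24 to 0.075 (Glrx) and -0.22 to 0.25 (Gstp1), and between STAT3KO lineages from -0.0035 to 0.087 (Gclc), -0.16 to 0.12 (Gpx1) and -0.45 to 0.023 (Gstp1). With 2 pools per group, intervals of most of the 10 genes span about 0.3 to 0.5 on either side on the log2 scale.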
